A study of Mus musculus with 12 samples.

Results

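The 9 genes described here belong to natriuretic peptide and cGMP signalling, and were followed in infarcted neonatal mouse hearts with and without a floxed Wls, the gene needed for Wnt secretion. They are the 3 peptide genes Nppa, Nppb and Nppc, the peptide-activating protease Corin, the 3 receptor genes Npr1, Npr2 and Npr3, the cGMP-dependent kinase Prkg1 and the cGMP phosphodiesterase Pde5a. All 9 symbols are listed in both deposited tables, out of 46983 gene symbols in each. They were picked as a pathway because Prkg1 was higher in Wls fl/fl libraries of both cell fractions and Nppa was lower in those of the non-cardiomyocyte fraction, so the genotype values of all 9 are given here as a description with no test.

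RNA was sequenced from 12 libraries in 4 groups of 3. Wls fl/fl hearts carried MCM/+ and floxed Wls, and control hearts carried MCM/+ alone, both on a BL6/C57 background. MCM commonly stands for the tamoxifen-dependent MerCreMer form of Cre, which in the heart is usually driven by a cardiomyocyte promoter, although the labels do not name the promoter. Every mouse, controls included, had 3 daily tamoxifen doses that ended on postnatal day 3 and a myocardial infarction on postnatal day 2, and tissue was taken 2 weeks after surgery. Each heart gave a cardiomyocyte fraction (CM, labelled adult cardiomyocytes) and a non-cardiomyocyte fraction (NonCM, labelled as interstitial cells of the adult heart), and 3 hearts were collected per condition. No uninjured group, no group without tamoxifen and no group with floxed Wls but no Cre was analysed here, so the effect of the deletion cannot be told apart from that of the floxed allele itself, and nothing here measures the response to the infarction.

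Atrial natriuretic peptide (Nppa) and B-type natriuretic peptide (Nppb) are hormones released by heart muscle cells under stretch or injury. In the ventricle both genes are active before birth and are largely silenced as the heart matures, while the atria keep Nppa high. Corin is the membrane protease that cuts the atrial precursor into its active form. Npr1, activated by both cardiac peptides, and Npr2, activated by the C-type peptide that Nppc encodes, are receptors with a guanylyl cyclase inside the cell and make cGMP. Npr3 binds all of these peptides and removes them from the circulation. The kinase encoded by Prkg1 carries the cGMP signal to its substrates, and Pde5a hydrolyses cGMP.

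Nppa and Nppb are neighbours on mouse chromosome 4 (build mm10, plus strand), at chr4:148000722-148002079 and chr4:147985788-147987205 in the GENCODE M21 annotation, with 13.5 kb between them. Their proximal promoters are shown because both peptide genes were lower in the NonCM libraries of Wls fl/fl hearts. The sequences are the 250 bases before each RefSeq start (RefSeq, GRCm38.p6, plus strand), chr4:148000472-148000721 for Nppa and chr4:147985650-147985899 for Nppb. The GENCODE span of Nppb begins inside its window. Capitals mark matches to short motifs searched on both strands, none of which overlap another.
Nppa: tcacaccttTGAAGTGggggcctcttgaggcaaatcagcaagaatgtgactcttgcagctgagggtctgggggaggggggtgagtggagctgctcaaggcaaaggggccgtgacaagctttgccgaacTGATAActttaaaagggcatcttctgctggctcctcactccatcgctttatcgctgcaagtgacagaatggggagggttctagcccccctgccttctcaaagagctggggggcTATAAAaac
Nppb: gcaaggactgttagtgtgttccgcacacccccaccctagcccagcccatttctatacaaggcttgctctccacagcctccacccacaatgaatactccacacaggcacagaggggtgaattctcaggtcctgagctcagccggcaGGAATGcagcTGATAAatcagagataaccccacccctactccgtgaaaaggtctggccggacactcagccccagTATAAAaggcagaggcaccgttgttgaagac

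Both promoters held a GATA-type element (TGATAA), the motif of the cardiac factor GATA4 and its relatives, at 122 to 117 bases before the start of Nppa and at 95 to 90 bases before that of Nppb. Both also held a TATA element (TATAAA), at 9 to 4 bases before the start of Nppa and at 31 to 26 bases before that of Nppb. The Nppb window alone held a TEAD element (GGAATG), the motif of the partners of YAP, at 105 to 100 bases before the start. The Nppa window alone held a match to the motif of the cardiac factor NKX2-5 (TNAAGTG), at 241 to 235 bases before the start. Such short motifs are common, and of 32851 RefSeq promoter windows of 250 bases 7.94% held TGATAA, 12.4% TATAAA, 12.6% GGAATG and 10.1% TNAAGTG. The CArG box, the site of serum response factor, was searched only in its strict form (CCWWWWWWGG, where W is A or T). That form is found in 1.47% of those windows and was matched in no window of the 9 genes. Forms with a mismatch were not searched. Of the other 7 genes, Nppc had a TATA element at 29 to 24 bases before its start, and none of the searched letters were in the windows of the rest. These matches describe the letters and say nothing of binding. In the same annotation Nppc lies at chr1:86666291-86670571 (minus strand), Corin at chr5:72300025-72504473 (minus), Npr1 at chr3:90450591-90465866 (minus), Npr2 at chr4:43631935-43651244 (plus), Npr3 at chr15:11839896-11907287 (minus) and Pde5a at chr3:122728947-122859374 (plus).

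The libraries held 5171769 to 9775856 recovered reads in the CM fraction and 1160146 to 10281214 in the NonCM fraction. Replicate 1 of the NonCM control group was the shallowest, and 1 read there is worth 5.54 normalized counts. In every group the gene counts of replicate 3 lay close to a weighted mean of those of replicates 1 and 2, with a residual of 1.01 to 1.06 times the variance that counting alone gives, whereas replicate 1 or 2 set against the other libraries of its group left 1.12 to 1.92 times. Results are therefore also given without replicate 3, and nothing in the labels says why these libraries lie so close. Wls, the targeted gene, had 91.6, 57.3 and 93.9 normalized read counts in CM libraries of Wls fl/fl hearts, against 243, 201 and 210 in control CM libraries, a log2 difference of -1.45 with a 95% interval of -1.81 to -1.09 (limma with Benjamini-Hochberg adjustment, adjusted p = 0.00389). Without replicate 3 of both genotypes the difference was -1.60 and missed the threshold (limma, adjusted p = 0.0896), as it did without replicate 3 of the control group alone (-1.47, adjusted p = 0.0527). Wls in the NonCM fraction had 356, 323 and 316 normalized read counts in Wls fl/fl hearts, against 427, 374 and 407 in control hearts, a log2 difference of -0.28 (limma, adjusted p = 0.0831).

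Ventricular, fibroblast and macrophage markers fit the fraction labels in direction, while the NonCM libraries still held much heart muscle RNA. On jointly scaled counts in control hearts, all 12 ventricular cardiomyocyte markers were lower in NonCM than in CM libraries (median log2 difference -0.88). All 8 fibroblast and all 8 macrophage markers were higher, with medians of 2.87 and 4.33. Vascular markers were less separated by fraction. Of 9 blood endothelial markers, limma called 4 higher in NonCM and 0 lower (median 0.16). Of 6 smooth muscle markers tested it called 1 higher and 1 lower (median 0.05), and of 7 pericyte markers 2 higher and 1 lower (median -0.04). Over all genes 27.2% were called higher and 28.3% lower in this comparison. The 12 ventricular markers together made up 5.48 to 5.61% of reads in NonCM libraries of Wls fl/fl hearts and 6.3 to 7.05% in those of control hearts. In CM libraries they made up 9.76 to 10.7% in Wls fl/fl and 9.9 to 10.1% in control hearts. Within the NonCM fraction, all 12 stood lower in Wls fl/fl than in control hearts (median log2 difference -0.29, range -0.40 to -0.08), and limma called 10 of them. All 8 fibroblast markers stood higher (median 0.56, range 0.29 to 0.73), and limma called 6. Over all genes tested there, 2.03% were called lower and 2.47% higher. Without replicate 3 of both genotypes the medians were -0.28 for ventricular and 0.57 for fibroblast markers, but limma called none of these genes (8 ventricular and 7 fibroblast markers had an unadjusted p under 0.05) and edgeR called 1, a fibroblast marker. In bulk RNA, fewer cells of a type and less RNA per cell cannot be told apart.

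Within a library, levels of different genes were compared as RPKM, the recovered reads divided by the annotated exon length and by the library total. Nppb, Corin and Nppa led in every group. In CM libraries of Wls fl/fl hearts the mean RPKM values were 99.2 for Nppb, 83.6 for Corin, 41.9 for Nppa, 10.1 for Npr2, 4.37 for Npr1, 3.92 for Npr3, 3.59 for Prkg1, 0.813 for Pde5a and 0.105 for Nppc. In CM libraries of control hearts the order of the genes was the same, with 112 for Nppb, 87.6 for Corin, 53.7 for Nppa and 2.0 for Prkg1. The NonCM libraries differed in the place of the clearance receptor Npr3, which stood above both cyclase receptors, with 22.3 RPKM in Wls fl/fl and 27.2 in control hearts. Prkg1 was next to last in the order there, with 3.14 RPKM in Wls fl/fl and 2.29 in control hearts, above Nppc with 0.432 and 0.692. Pde5a stood next to Prkg1, with 3.39 in Wls fl/fl and 2.64 in control hearts. Neighbours in the order whose replicate ranges overlapped were Nppb and Corin in all groups but control CM, Npr1 and Npr3 in CM libraries of Wls fl/fl hearts, and Pde5a and Prkg1 in both NonCM groups.

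**Figure D1:**
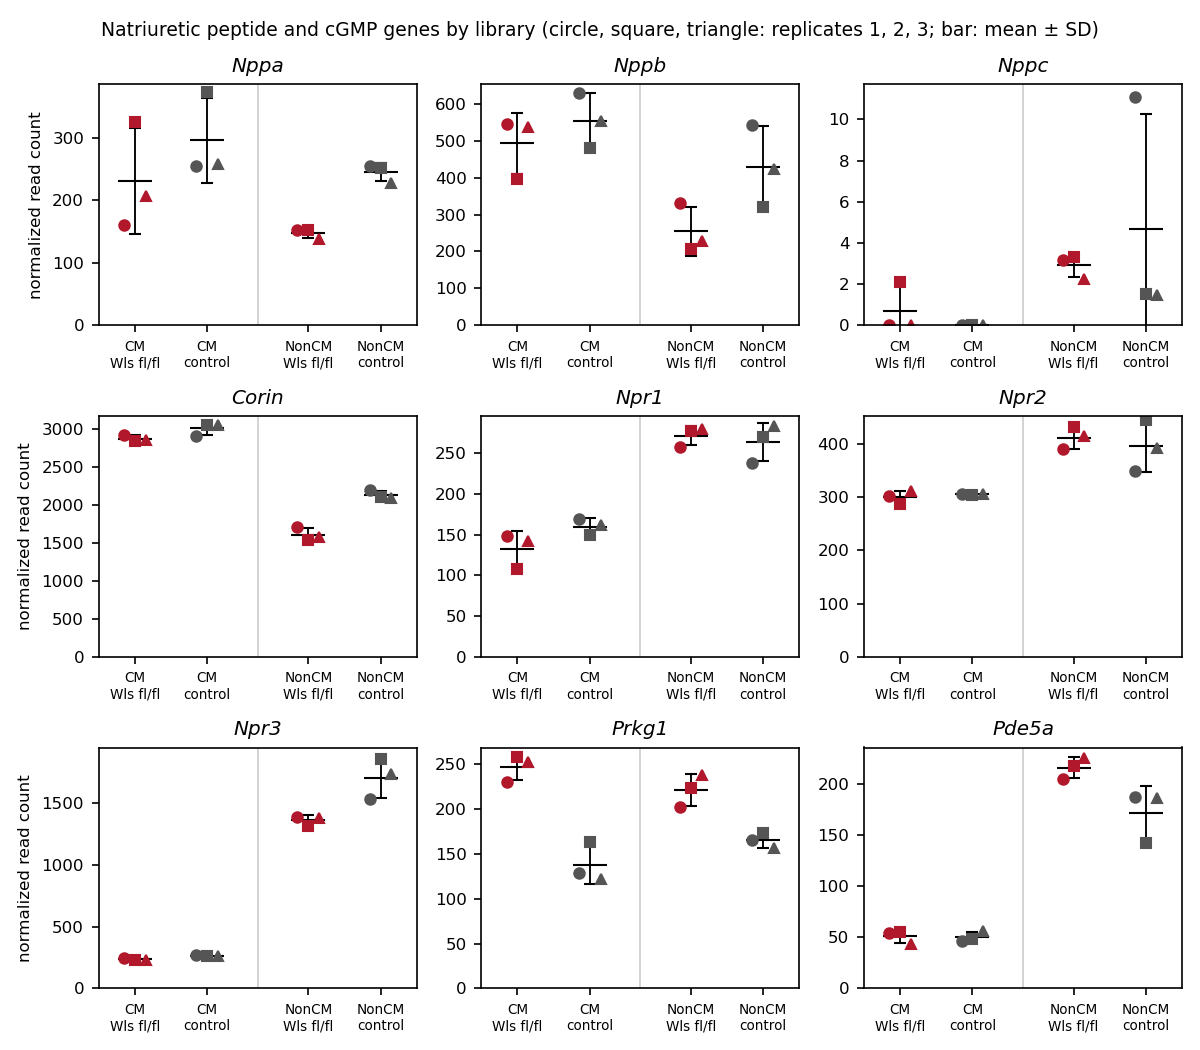
Normalized read counts of the 9 genes in each of the 12 libraries, on the authors' scale, which was set separately for the CM and NonCM tables. Markers are single libraries and bars are the mean ± SD of 3; the Wls fl/fl libraries of Prkg1 lie above the control ones in both fractions, and those of Nppa and Corin lie below in NonCM.

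The genotype comparison asked how each gene stood in Wls fl/fl hearts set against control hearts, in each fraction apart. Values are the authors' normalized read counts of replicates 1, 2 and 3, and differences are Wls fl/fl minus control on log2(normalized count + 1) ± SE from the fit over all genes. In NonCM libraries the peptide genes, their protease and the clearance receptor stood lower and the kinase and the phosphodiesterase higher. In the CM fraction the difference in Prkg1 was the largest of the 8 genes that passed the filter on low values, a mean normalized count of 10 or more over the libraries compared. Nppc did not pass it in either fraction.

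Nppa, the atrial peptide gene, had 153, 152 and 138 normalized read counts in NonCM libraries of Wls fl/fl hearts, against 255, 252 and 228 in those of control hearts. The 3 Wls fl/fl libraries were all below the control libraries and close together, with means of 147 ± 8.46 in Wls fl/fl and 245 ± 14.8 in control libraries (SD, n = 3 each). The log2 difference was -0.73 ± 0.09, or 0.602 as a fold change, and stayed at -0.73 without replicate 3. Among CM libraries Nppa had 160, 325 and 206 in Wls fl/fl hearts, against 255, 373 and 258 in control hearts. There the groups overlapped, replicate 2 was the highest library of each, and the log2 difference of -0.40 ± 0.21 ranged between -0.68 and -0.17 as each library was left out in turn. Gm13054, an annotated gene on the opposite strand whose exons overlap Nppa, had 32 reads over all 12 libraries, which is 1.09% of the reads of Nppa, and no source used here says whether the counting used strand.

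Since the atria keep Nppa high, the 7 atrial markers are given beside it. Myl7, the atrial regulatory myosin light chain, had 12.9, 251 and 62.1 normalized read counts in CM libraries of Wls fl/fl hearts, against 104, 56.8 and 92.4 in those of control hearts. The Wls fl/fl libraries thus followed the same order for Myl7 as for Nppa, replicate 2 highest and replicate 1 lowest, while the control libraries did not. Myl7 in the NonCM fraction had 15.9, 222 and 147 in Wls fl/fl hearts, against 222, 137 and 157 in control hearts, while Nppa varied little within each of these groups. Sarcolipin (Sln) and the atrial essential light chain Myl4 followed Myl7, low in replicate 1 of the Wls fl/fl NonCM group (1.27 and 20.3) and at 20.9 to 35.9 and 122 to 166 in replicates 2 and 3, against 22.1 to 27.7 and 107 to 138 in control libraries. Kcnj3 and Kcnj5, which encode subunits of the acetylcholine-gated potassium channel, were lower without overlap in the NonCM fraction, as Nppa was. Kcnj3 had 152, 132 and 144 in NonCM libraries of Wls fl/fl hearts, against 194, 159 and 196 in those of control hearts. Kcnj5 had 434, 401 and 375 in Wls fl/fl hearts, against 610, 457 and 507 in control hearts. Between the fractions of control hearts, limma called 2 of the 6 tested atrial markers lower in NonCM, these channel genes. It called 1 higher, and the median log2 difference of the atrial list (NonCM minus CM) was 0.52. All 12 ventricular markers were called lower in NonCM, as were 28.3% of all genes, while 27.2% were called higher. The ventricular markers also had a median log2 difference of -0.29 between genotypes in NonCM. Whether the channel genes followed atrial or ventricular muscle RNA was not tested. The atrial markers thus did not move together: the light chains and Sln were low in 1 Wls fl/fl NonCM library, and the channel genes were low in all 3. Dkk3, a secreted protein gene on the list, overlapped between the groups, with 202, 318 and 315 in Wls fl/fl and 272, 175 and 219 in control NonCM libraries. The atrial list as a whole made up 0.0126 to 0.0197% of reads in Wls fl/fl and 0.0155 to 0.0227% in control NonCM libraries. That share is mostly Kcnj5, Dkk3 and Kcnj3, so it gives little weight to Myl7, Myl4 and Sln. The 3 averaged 403, 278 and 143 normalized read counts in Wls fl/fl and 525, 222 and 183 in control NonCM libraries, in the order Kcnj5, Dkk3 and Kcnj3. No atrial marker passed the test in either fraction (0 of 6 tested, median log2 difference -0.29 in CM and -0.55 in NonCM; limma, with 1 and 2 at an unadjusted p under 0.05), and the atrial growth factor Bmp10 was at 0 in all 6 control libraries and at most 2.08 elsewhere. The part of atrial RNA in the values of Nppa was not tested.

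**Figure D2:**
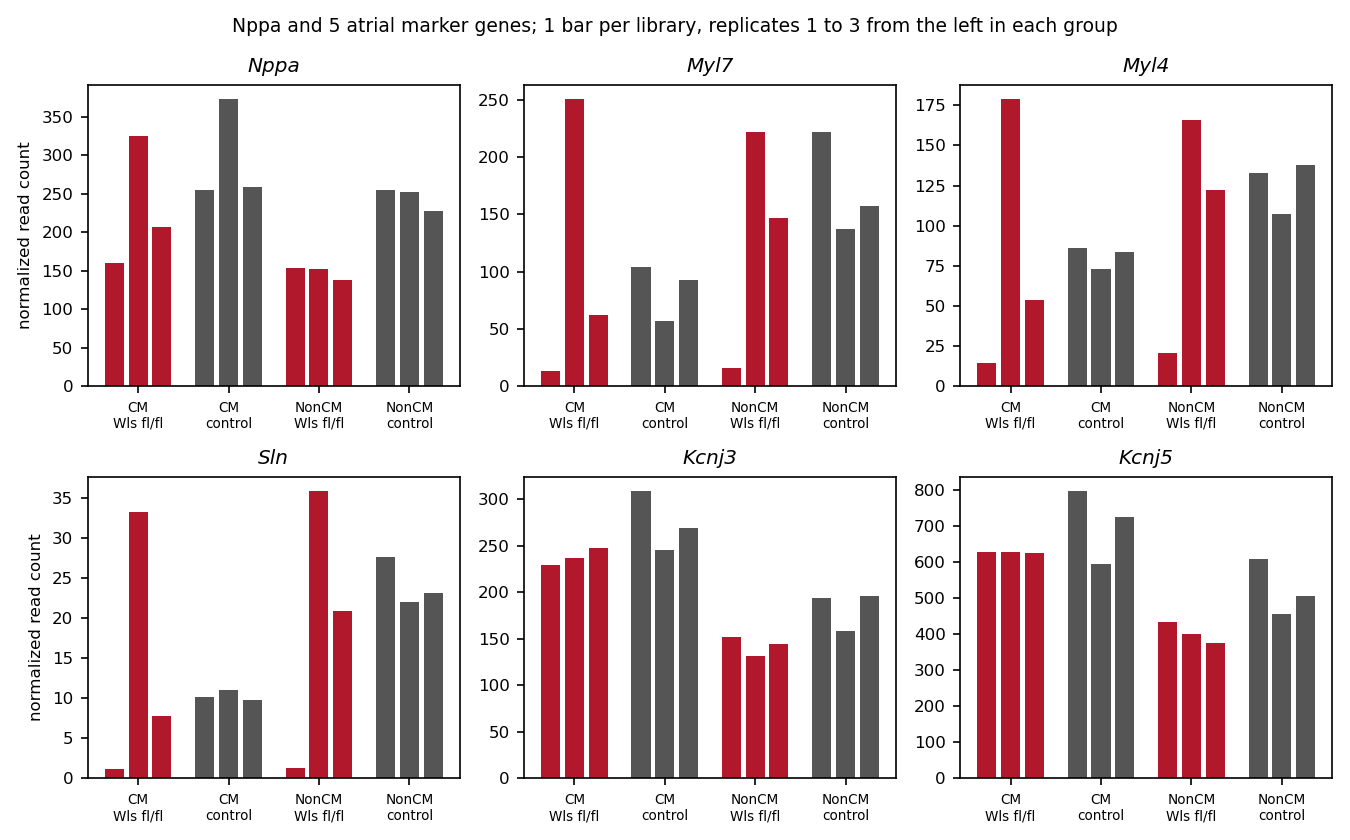
Normalized read counts of Nppa and of 5 atrial markers, Myl7, Myl4, Sln, Kcnj3 and Kcnj5, with 1 bar per library and replicates 1 to 3 from the left. In NonCM libraries of Wls fl/fl hearts Myl7 ran between 15.9 and 222 and Nppa between 138 and 153, and Kcnj3 and Kcnj5 lay below all control libraries, as Nppa did.

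Nppb, the B-type peptide gene, had 331, 206 and 228 normalized read counts in NonCM libraries of Wls fl/fl hearts, against 543, 320 and 423 in those of control hearts. Replicate 1 of the Wls fl/fl group lay just above replicate 2 of the control group, so the groups overlapped although the means were 255 ± 66.5 in Wls fl/fl and 429 ± 112 in control libraries (SD, n = 3 each). The log2 difference was -0.75 ± 0.21, about the size of that of Nppa but with a larger spread, and -0.67 without replicate 3. CM libraries had 545, 397 and 537 normalized read counts of Nppb in Wls fl/fl hearts, against 630, 479 and 554 in control hearts. These groups overlapped, and the log2 difference of -0.17 ± 0.12 came down to -0.03 when replicate 2 of the Wls fl/fl group was left out.

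Nppc, the gene of the C-type peptide, was barely detected. It had 2 reads in 1 of the 6 CM libraries and none in the others, where a count of 0 allows up to 0.307 to 0.58 RPM (3 reads scaled by each library's total, for counting error only). NonCM libraries had 5, 5 and 3 reads of it in Wls fl/fl hearts, against 2, 2 and 2 in control hearts. The normalized count of 11.1 in replicate 1 of the control group stands for 2 reads of the shallow library, and no difference was computed.

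Corin, the protease that activates the atrial peptide, had 1707, 1537 and 1582 normalized read counts in NonCM libraries of Wls fl/fl hearts, against 2190, 2106 and 2091 in those of control hearts. The groups did not overlap, and the log2 difference of -0.41 ± 0.05 was the same without replicate 3. In CM libraries it had 2924, 2840 and 2851 in Wls fl/fl hearts, against 2906, 3051 and 3056 in control hearts, overlapping values with a log2 difference of -0.06 ± 0.04. Corin is a gene of heart muscle cells, and its NonCM difference stood beside the median of -0.29 over the 12 ventricular markers in the same libraries, none of which went below -0.40. The part of muscle RNA in the NonCM values of Nppa, Nppb and Corin was not tested.

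Of the receptors, Npr3 was lower without overlap in both fractions. It had 1383, 1315 and 1381 normalized read counts in NonCM libraries of Wls fl/fl hearts, against 1530, 1851 and 1730 in those of control hearts. In the CM libraries it had 246, 231 and 226 in Wls fl/fl hearts, against 266, 260 and 263 in control hearts. Neither pair of groups overlapped, and the log2 differences were -0.32 ± 0.07 in NonCM and -0.17 ± 0.07 in CM. Npr3 is abundant in the endocardium, and the 4 endocardial markers had a median log2 difference of -0.11 in NonCM with none past the test (limma, 0 also at an unadjusted p under 0.05). Their part in the Npr3 difference was not tested.

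Npr1, the receptor for the cardiac peptides, had 148, 108 and 142 normalized read counts in CM libraries of Wls fl/fl hearts, against 169, 149 and 162 in those of control hearts. The highest Wls fl/fl library lay just below the lowest control library, and the log2 difference was -0.28 ± 0.12, or -0.14 without replicate 2 of the Wls fl/fl group. NonCM values were 258, 277 and 280 in Wls fl/fl hearts, against 238, 270 and 283 in control hearts, which overlapped, with a log2 difference of 0.05 ± 0.09. Npr2, the receptor for the C-type peptide, had 390, 432 and 415 in NonCM libraries of Wls fl/fl hearts, against 349, 445 and 393 in those of control hearts. Its CM libraries had 302, 288 and 312 in Wls fl/fl hearts, against 306, 305 and 306 in control hearts. The groups overlapped in both fractions, and the log2 differences were 0.07 ± 0.09 in NonCM and -0.02 ± 0.07 in CM. An antisense gene, Gm12473, overlaps Npr2 and had 5.47% as many reads.

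Prkg1, cGMP-dependent protein kinase I, had 231, 258 and 253 normalized read counts in CM libraries of Wls fl/fl hearts, against 129, 163 and 122 in those of control hearts. All 3 Wls fl/fl libraries lay well above the control libraries, with means of 248 ± 14.3 in Wls fl/fl and 138 ± 22.1 in control hearts (SD, n = 3 each). The log2 difference was 0.85 ± 0.11, or 1.8 as a fold change. It lay between 0.77 and 0.98 as each library was left out, and at 0.75 without replicate 3 of both genotypes. NonCM libraries had 202, 224 and 238 normalized read counts of Prkg1 in Wls fl/fl hearts, against 166, 174 and 157 in control hearts. These groups did not overlap either, and the log2 difference was 0.41 ± 0.09, or 0.32 without replicate 3. The gene spans chr19:30564489-31765033 (mm10, minus strand), the longest span of the 9 genes, and the protein-coding gene Cstf2t lies inside it on the other strand without sharing exon bases.

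Smooth muscle cells and pericytes also use this kinase, and the shares of their markers overlapped between the genotypes in the CM fraction. The 7 smooth muscle markers made up 0.0562 to 0.0766% of reads in CM libraries of Wls fl/fl hearts and 0.061 to 0.0659% in those of control hearts, and the 7 pericyte markers 0.139 to 0.149% in Wls fl/fl and 0.141 to 0.149% in control hearts. Rgs5 and Abcc9 held most of the pericyte share. Acta2 held most of the smooth muscle share, averaging 3001 normalized read counts in Wls fl/fl and 2966 in control CM libraries. In control NonCM libraries Acta2 averaged 1996, and Abcc9 averaged 3945 in control CM and 3183 in control NonCM libraries, on scales set separately for each fraction. On jointly scaled counts of control hearts the lowest log2 difference (NonCM minus CM) was -0.89 on the smooth muscle and -0.63 on the pericyte list. The ventricular median was -0.88. Whether these shares followed smooth muscle and pericyte RNA was not tested. Of the 6 smooth muscle markers tested in CM, limma called 0, with a median log2 difference of 0.1 (range -0.12 to 0.37). Tagln alone was higher without overlap, with 59.9, 49.0 and 47.9 in Wls fl/fl, against 43.9, 38.3 and 45.7 in control CM libraries. The smooth muscle share in the NonCM fraction was 0.0422 to 0.0495% in Wls fl/fl and 0.0482 to 0.0521% in control libraries, with a median log2 difference of 0.02 over 6 tested markers. That share is mostly Acta2, which averaged 1684 normalized read counts in Wls fl/fl and 1996 in control NonCM libraries. Myh11, the smooth muscle myosin heavy chain, went the other way without overlap, with 233, 272 and 270 in Wls fl/fl NonCM libraries, against 150, 229 and 223 in control ones, and Lmod1 averaged 28.7 in Wls fl/fl and 18.7 in control libraries with overlapping values. Fibroblast markers were higher in the same NonCM libraries, at 1.28 to 1.39% of reads in Wls fl/fl and 0.873 to 0.89% in control libraries. Ventricular markers made up 5.48 to 5.61% of reads in these Wls fl/fl libraries and 6.3 to 7.05% in the control ones. The part of smooth muscle, fibroblast and heart muscle RNA in the NonCM values of Prkg1 was not tested. In the CM libraries fibroblast markers made up 0.0989 to 0.125% of reads in Wls fl/fl and 0.098 to 0.108% in control hearts. The part of smooth muscle, pericyte and fibroblast RNA in the CM values of Prkg1 was also not tested.

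Pde5a, which breaks down cGMP, had 205, 218 and 226 normalized read counts in NonCM libraries of Wls fl/fl hearts, against 188, 142 and 187 in those of control hearts. The groups did not overlap, and replicate 2 was the lowest of the control group. The log2 difference was 0.33 ± 0.12, and 0.20 without that library. Pde5a in the CM fraction had 54, 55.2 and 43.4 in Wls fl/fl hearts, against 46, 48.1 and 56.4 in control hearts, with a log2 difference of 0.02 ± 0.16 that was 0.21 without replicate 3.

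Of the 8 genes above the filter on low values, 1 was higher and 2 were lower without overlap in the CM fraction, where 7.97% of 11944 genes were higher and 7.05% lower in this way. Among NonCM libraries 2 were higher and 3 lower without overlap, where 13.9% of 13271 genes were higher and 12.6% lower. The median log2 difference of the 8 was -0.12 in CM and -0.14 in NonCM, against 0 and 0.02 over all genes. The genes were chosen on these contrasts, so nothing is read from their shares.

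**Figure D3:**
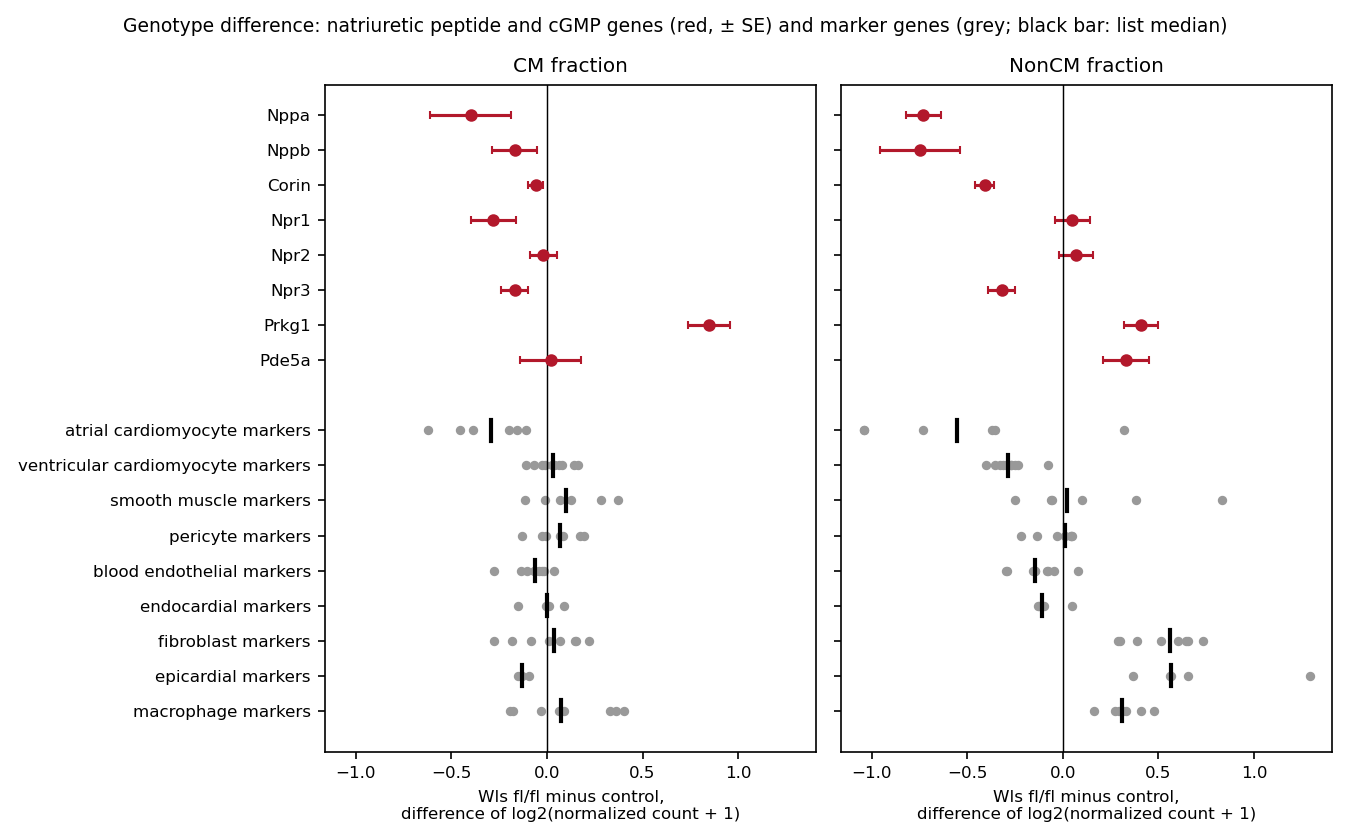
Difference of log2(normalized count + 1), Wls fl/fl minus control, for the 8 genes above the filter (red, ± SE) and for each marker gene tested (grey, with the list median as a black bar), in the CM and NonCM fractions. Prkg1 lies at 0.85 in CM, and in NonCM Nppa and Nppb lie near -0.7 with fibroblast markers on the other side of 0.

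The fraction comparison asked in which fraction each gene was the more abundant. The choice of the genes named Nppa and Prkg1 from these same libraries, so the fraction values of both are given with no test, and the other genes above the filter were tested. Values are recovered reads scaled jointly over the 12 libraries, a scale other than that of the authors' tables. In control hearts the test called 55.5% of 12786 genes (27.2% higher and 28.3% lower in NonCM), so a call is common here, and of the 6 genes tested 3 were higher and 2 lower. In Wls fl/fl hearts it called 61.6% of genes (30.7% higher and 30.9% lower), and again 3 of the 6 were higher and 2 lower. Npr3, Pde5a and Npr1 were higher in the NonCM fraction, Nppb and Corin were lower there, and Npr2 did not pass the test.

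Npr3 had the largest difference. It had 1373, 1638 and 1534 jointly scaled counts in NonCM libraries of control hearts, against 296, 288 and 291 in CM libraries. The ranges were far apart, and the log2 difference was 2.37 (95% interval 2.23 to 2.51, limma, adjusted p = 7e-14), or 5.17 as a fold change. Wls fl/fl hearts had 1237, 1166 and 1228 counts of Npr3 in NonCM against 273, 262 and 251 in CM libraries, a log2 difference of 2.20 (2.06 to 2.34, limma, adjusted p = 1.2e-13). The endocardial markers, a lining that is known to carry this receptor, were all higher in NonCM libraries of control hearts as well (4 of 4, median 2.17). So were all tested fibroblast (8 of 8, median 2.87), epicardial (5 of 5, 1.79) and macrophage markers (8 of 8, 4.33). The part of endocardial RNA in the fraction difference of Npr3 was not tested.

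Pde5a had 169, 126 and 166 jointly scaled counts in NonCM libraries of control hearts, against 51.2, 53.2 and 62.5 in CM libraries. The log2 difference was 1.44 (1.14 to 1.74, limma, adjusted p = 2.4e-07), and in Wls fl/fl hearts it was 1.75 (1.45 to 2.04, limma, adjusted p = 1.6e-08). Npr1, which is known from endothelial and smooth muscle cells as well as from cardiomyocytes, had 214, 239 and 251 in NonCM and 188, 165 and 179 in CM libraries of control hearts. The difference of Npr1 was smaller, 0.40 (0.17 to 0.63, limma, adjusted p = 0.00479), and missed the threshold under upper-quartile scaling (0.21, limma, adjusted p = 0.095). Without replicate 3 of every group it missed the threshold by limma (0.36, adjusted p = 0.0888) but not by edgeR (0.41, adjusted p = 0.0414). Npr1 in Wls fl/fl hearts had 231, 245 and 249 in NonCM against 165, 123 and 159 in CM libraries, a log2 difference of 0.71 (0.48 to 0.94, limma, adjusted p = 2.6e-05).

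Corin had 1965, 1864 and 1854 jointly scaled counts in NonCM libraries of control hearts, against 3237, 3374 and 3386 in CM libraries. Its log2 difference of -0.81 (-0.92 to -0.71, limma, adjusted p = 1.2e-09) was near the median of -0.88 over the ventricular markers. In Wls fl/fl hearts the difference was -1.17 (-1.27 to -1.06, limma, adjusted p = 9.8e-12), beside a median of -1.19 over the same markers. Nppb had 487, 284 and 375 in NonCM and 702, 530 and 613 in CM libraries of control hearts, a log2 difference of -0.71 (-1.11 to -0.31, limma, adjusted p = 0.00457). In NonCM libraries of Wls fl/fl hearts it had 296, 183 and 203, against 606, 449 and 597 in CM libraries, a log2 difference of -1.29 (-1.70 to -0.89, limma, adjusted p = 1.9e-05). Nppa had 229, 223 and 202 in NonCM and 285, 412 and 286 in CM libraries of control hearts, a log2 difference of -0.56 given with no test. It was -0.39 without the high CM replicate 2 and -0.31 with scaling by total reads. The Nppb call in control hearts was lost with scaling by total reads (-0.46, adjusted p = 0.0546) and without replicate 3 of every group (-0.71, adjusted p = 0.0596 by limma). Nppa in Wls fl/fl hearts had 137, 134 and 122 in NonCM against 178, 368 and 230 in CM libraries, a log2 difference of -0.91 given with no test.

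Prkg1 had 149, 154 and 139 jointly scaled counts in NonCM libraries of control hearts, against 143, 180 and 135 in CM libraries. These values overlapped, and the log2 difference of -0.04, given with no test, turned its sign with scaling by total reads (0.21) and without replicate 2 of the CM control group (0.08). Prkg1 in Wls fl/fl hearts had 180, 198 and 211 in NonCM against 257, 292 and 282 in CM libraries, a log2 difference of -0.49 with no test, and -0.19 with scaling by total reads. The log2 difference of Npr2 was 0.05 in control hearts (-0.12 to 0.21, limma, adjusted p = 0.624) and 0.13 in Wls fl/fl hearts (-0.04 to 0.29, limma, adjusted p = 0.172). Its sign and its call depended on the scaling, with -0.14 and -0.10 under upper-quartile scaling (adjusted p = 0.11 and 0.241), and 0.30 and 0.43 with scaling by total reads, where both passed the test (adjusted p = 0.00288 and 1.0e-04). Whether a fraction difference differed between the genotypes was not tested for the 9 genes, because that test would use both genotype contrasts.

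**Figure D4:**
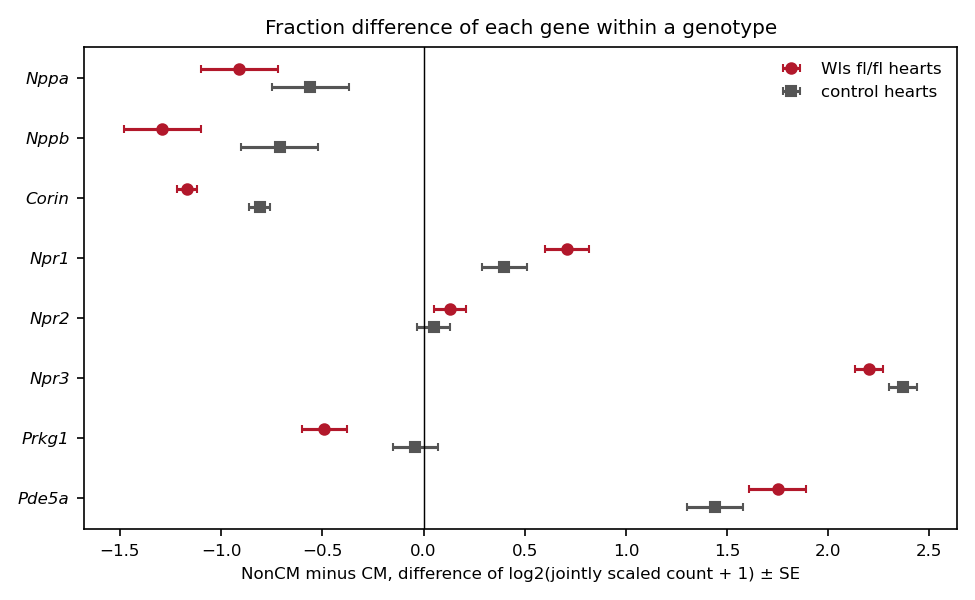
Difference of log2(jointly scaled count + 1), NonCM minus CM, ± SE, in Wls fl/fl hearts (circles) and control hearts (squares) for the 8 genes above the filter. Npr3 lies at 2.20 and 2.37 and Pde5a at 1.75 and 1.44, while Nppb, Corin and Nppa lie below 0 in both genotypes.

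The rest of the pathway was taken from 6 lists of 39 other genes, of which 27 passed the filter in CM and 28 in NonCM libraries. In the CM fraction none of the 27 passed the test between Wls fl/fl and control hearts (limma, 0 called, 2 at an unadjusted p under 0.05), with a median log2 difference of -0.02. Over all genes tested there, 0.0921% were called and 8.74% had an unadjusted p under 0.05. The 2 pathway genes at that unadjusted level were the cGMP and cAMP phosphodiesterase Pde10a (0.74, unadjusted p = 0.0124) and the kinase partner Mrvi1 (-0.29, unadjusted p = 0.0393), named after their values were seen. Among NonCM libraries 2 genes were called higher and 2 lower (limma, 11 at an unadjusted p under 0.05), with a median of 0.08. Over all genes tested there, 4.51% were called (2.47% higher and 2.03% lower) and 19.3% had an unadjusted p under 0.05.

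Pde1c, a calmodulin-dependent phosphodiesterase of heart muscle cells, had 640, 581 and 620 normalized read counts in NonCM libraries of Wls fl/fl hearts, against 909, 792 and 784 in those of control hearts. The groups did not overlap, and the log2 difference was -0.43 (-0.59 to -0.27, limma, adjusted p = 0.0154). Pln, the phospholamban that restrains the calcium pump and is a kinase substrate, fell by 0.31 on the log2 scale (limma, adjusted p = 0.0183). It is also among the 12 ventricular markers, of which limma called 10 lower in the same libraries. Pcsk6, the convertase that activates corin, rose to 2559, 1971 and 2122 in Wls fl/fl libraries, against 1369, 1695 and 1589 in control libraries, a log2 difference of 0.51 (0.28 to 0.75, limma, adjusted p = 0.0289). The 8 fibroblast markers had log2 differences of 0.29 to 0.73 in the same libraries (median 0.56), and the part of fibroblast RNA in the Pcsk6 values was not tested. Itpr1, a calcium release channel acted on through Mrvi1 and the kinase, rose by 0.22 (limma, adjusted p = 0.0462), a call that was lost under TMM and upper-quartile scaling, with no filter and with DESeq2 (adjusted p of 0.0648, 0.115, 0.0836 and 0.112). Without replicate 3 of both genotypes none of the 4 calls held (limma, adjusted p of 0.336 for Pde1c, 0.494 for Pln, 0.399 for Pcsk6 and 0.50 for Itpr1), nor did they with edgeR on the same libraries (0.103, 0.288, 0.159 and 0.356). Each of the 4 calls was also lost on leaving out NonCM replicate 3 of either genotype alone, or replicate 2 of the Wls fl/fl group.

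By list, the calls in NonCM fell on 1 of 4 tested genes of peptide processing and clearance, 1 of 8 other cGMP phosphodiesterases and 2 of 6 kinase partners. None of the 4 tested genes of nitric oxide synthesis, the 3 other guanylyl cyclases or the 3 export pumps and channels passed the test (limma, with 1, 2 and 0 at an unadjusted p under 0.05). Whether the genotype difference itself differed between the fractions was tested for the 28 genes, and none passed (limma, 0 called with 8 at an unadjusted p under 0.05, and 0 by edgeR). Over all genes 1.05% were called in this test and 13.7% had an unadjusted p under 0.05.

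**Figure D5:**
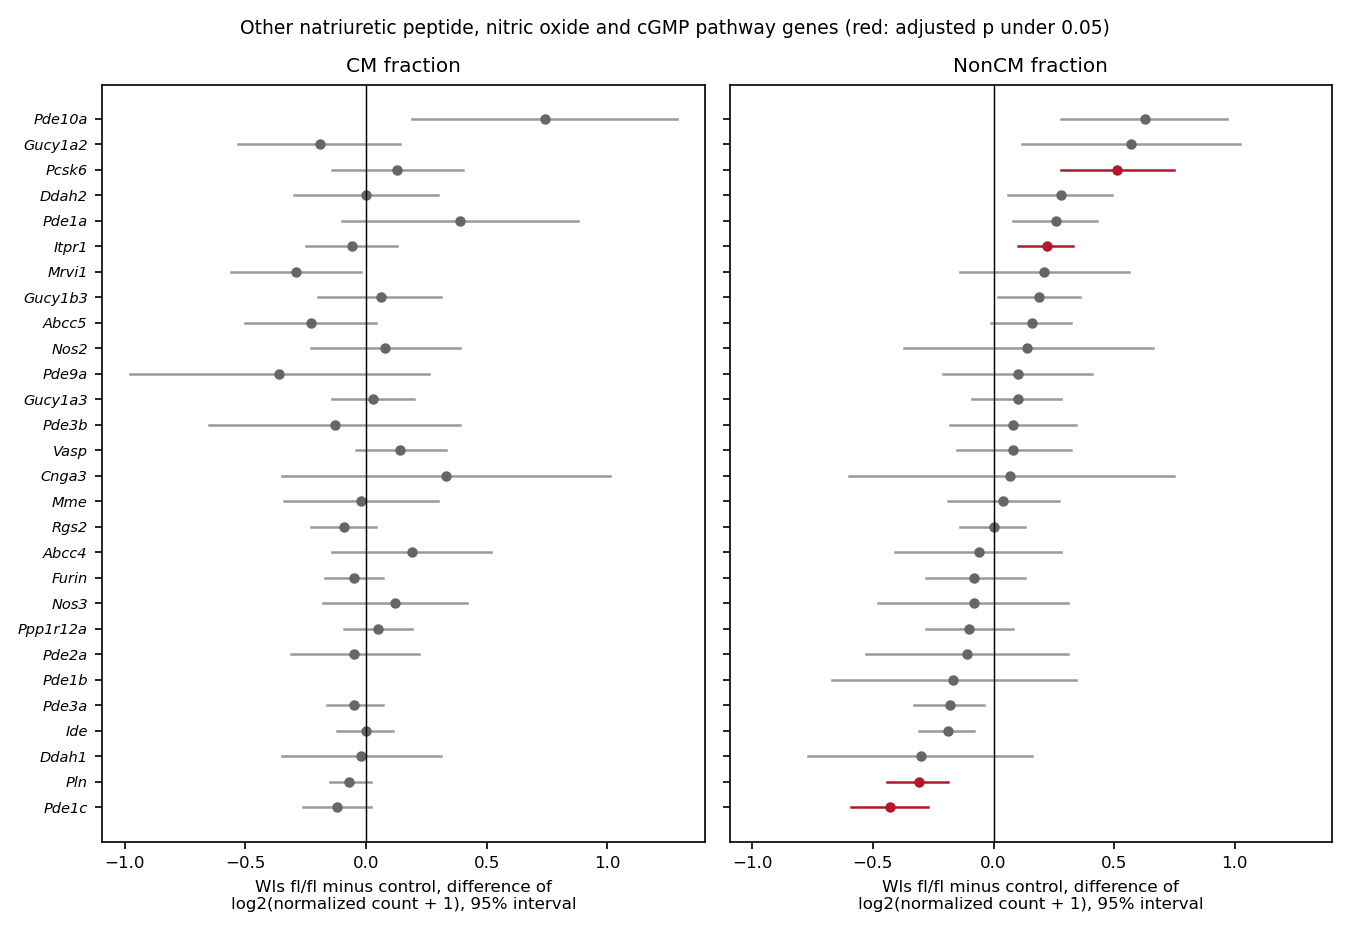
Difference of log2(normalized count + 1), Wls fl/fl minus control, with 95% intervals, for the pathway genes outside the 9, in the CM and NonCM fractions; red marks an adjusted p under 0.05. The 4 red genes, Pcsk6 and Itpr1 above 0 and Pln and Pde1c below it, are all in NonCM, and Pde1b was below the filter in CM.

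Between the fractions of control hearts the same 28 genes spread widely, with a median log2 difference of 0.26, against -0.02 over all genes. The test called 14 higher and 7 lower in NonCM, where 27.2% of all genes were called higher and 28.3% lower. Without replicate 3 of every group 12 were higher and 6 lower (limma). The 6 with the largest called differences were all higher in NonCM, and 5 of them break down cyclic nucleotides. Pcsk6 led with 1229, 1501 and 1409 jointly scaled counts in NonCM libraries, against 142, 164 and 116 in CM libraries, a log2 difference of 3.29 (limma, adjusted p = 1.6e-12). The phosphodiesterase Pde1a had 149, 150 and 147 in NonCM against 17.1, 23.2 and 20.5 in CM libraries, a difference of 2.83 (limma, adjusted p = 7.3e-11). Pde3b (1.55), Pde1b (1.47), Pde9a (1.40) and Pde10a (1.32) followed, with limma's adjusted p between 6.3e-06 and 2.8e-04, and all 6 calls held without replicate 3 of every group. Pde1c went the other way, with 816, 701 and 695 in NonCM against 1336, 1209 and 1341 in CM libraries, a log2 difference of -0.81 (limma, adjusted p = 8.1e-08), named here because it was also called between genotypes. In Wls fl/fl hearts 14 of the 28 were called higher and 9 lower in NonCM, with a median of 0.52. Over all genes 30.7% were called higher and 30.9% lower there.

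The genes whose pattern lay closest to that of a pathway gene were found by the root mean square distance of log2(jointly scaled count + 1), centred on each gene's own mean, over the 12 libraries and 8979 candidate genes. For Nppa these were Fign (0.211), Slc37a1 (0.227) and Adhfe1 (0.227), which like Nppa were lowest in NonCM libraries of Wls fl/fl hearts, with group means of -0.64, -0.68 and -0.71 around their own mean against -0.73 for Nppa. For Prkg1 they were Eno1 (0.227), Itga9 (0.231) and Nsmce2 (0.239), which were highest in CM libraries of Wls fl/fl hearts. They stood at 0.38, 0.35 and 0.40 there, against 0.57 for Prkg1. In CM libraries of control hearts they stood at 0.05, -0.04 and -0.17, against -0.3 for Prkg1, so each had a smaller genotype difference in CM than Prkg1. These distances describe shared patterns over libraries that also share fraction and depth.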

How the data were processed

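RNA was sequenced from 12 libraries of mouse heart, 3 per group, grouped by genotype and fraction in the labels. The submitters' processing notes name STAR, DESeq2 and mm10; the counting tool, annotation and strand setting were not given in the sources used here. Per the file headers, the authors deposited 1 table per fraction with a signal value per library, the normalized read count (gene counts divided by a size factor), and the log2 fold change, p-value and adjusted p-value of their own comparison, which were not used for any result. Normalized counts were whole multiples of 1 read for 100.0% of values (tolerance 0.01), so reads were recovered.

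Genotypes were compared within each deposited table with limma 3.58.1 (lmFit, eBayes with trend; R 4.3.3) on log2(normalized read count + 1), for genes with a mean of 10 or more, with Benjamini-Hochberg adjustment over all genes tested and a threshold of 0.05. Fractions were compared with the same test on recovered reads scaled jointly by median of ratios; a planned test of Nppa and Prkg1 there was dropped because the choice of genes used their values. The code was tested on simulated data. Fold changes on this scale understate those of low genes. Replicates are numbered in accession order, and the labels tie no library to a heart, so p-values reflect library-to-library spread, which may be technical. Gene positions and exon lengths come from GENCODE M21 (44027 symbols, 93.7%, matched once), and promoters from RefSeq, where all 9 genes matched. Protein sequences were not used here.

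The 9 genes and the lists were chosen with earlier results of these data known. Named by rule were all 9 genes, Wls, pathway genes past the threshold between genotypes (at most 12), the 6 with the largest called fraction difference in control hearts, and the 3 genes most like Nppa and Prkg1 (mean of 50 or more). Alternatives were TMM, upper-quartile and total-read scaling, no filter or a mean of 50, pseudocounts of 0.5 and 5, edgeR 4.0.16 (quasi-likelihood) and DESeq2 1.42.0 on recovered reads, each library left out, and no replicate 3; edgeR without replicate 3 and a replicate block for fractions were added after seeing the data.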

Additional observations from a re-analysis of the deposited data

How the results depend on the processing

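In the CM fraction 11 genes were called (8 higher, 3 lower in Wls fl/fl), against 41 with no filter on low values (26 and 15), 27 with DESeq2 (17 and 10), 2 without replicate 3 of both genotypes by limma or by edgeR, and 5 to 18 as each library was left out. In the NonCM fraction 598 were called (328 and 270), against 1446 with edgeR (761 and 685), 73 to 1621 as each library was left out, and, without replicate 3 of both genotypes, 0 with limma (1233 at an unadjusted p under 0.05) and 27 with edgeR. The NonCM split was 54.8% higher, and 41.8% under upper-quartile scaling (266 and 371). Between fractions of control hearts it was 49% higher in NonCM (3479 and 3614), against 33.3% under upper-quartile scaling (2625 and 5263) and 73.8% with scaling by total reads (5369 and 1907); in Wls fl/fl hearts it was 49.9%, 34% and 72.8%. Those scalings moved the median of all genes by -0.19 and 0.25 in control hearts and by -0.23 and 0.30 in Wls fl/fl hearts, so the smaller fraction differences (Npr2, Npr1, Nppa, Prkg1) are given relative to median-of-ratios scaling. The sign turned for Npr2 in control hearts under upper-quartile scaling (-0.14) and without NonCM control replicate 2 (-0.03, with a range of -0.03 to 0.13 as each library was left out), for Npr2 in Wls fl/fl hearts under upper-quartile scaling (-0.10), and for Prkg1 in control hearts with scaling by total reads (0.21) and without CM control replicate 2 (0.08, range -0.12 to 0.08). The cause of these changes was not tested. Between genotypes, the sign held under every alternative run for Nppa, Nppb, Corin, Npr3 and Prkg1 in both fractions, Npr1 in CM and Pde5a in NonCM, while differences near 0 changed sign for Npr2 (-0.05 to 0.01 in CM, -0.04 to 0.15 in NonCM), Pde5a in CM (-0.05 to 0.21) and Npr1 in NonCM (-0.03 to 0.10). The labels tie no CM library to a NonCM library, but within a genotype the title numbers of the fractions differ by a constant step of 6, so the 6 pairs this gives were tried as a replicate block, chosen after seeing the data. Deviations from the group means over all genes had r of 0.02 to 0.17 within these pairs and -0.18 to 0.03 between other libraries of the genotype, and 5 of 6 NonCM and 6 of 6 CM libraries were closest to their own partner, a hint from the data and not from the design. With the block 7318 genes were called between fractions of control hearts and 8075 in those of Wls fl/fl hearts, no call changed for the 6 of the 9 genes that were tested or for the 6 named pathway genes, and in the test of whether the genotype difference differed between fractions 1 of the 28 pathway genes was called, Pde1c (-0.32, limma, adjusted p = 0.0439), against 0 without it. Depth limits Nppc most, and replicate 1 of the NonCM control group.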

Other observations

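Among Wls fl/fl libraries, replicate 1 had the lowest values of the atrial markers Myl7, Myl4, Sln and Dkk3 in both fractions. Dkk3 had 24.7 normalized read counts there in CM and 202 in NonCM. The atrial markers Kcnj3 and Kcnj5 went the other way in NonCM, where replicate 1 was the highest of the Wls fl/fl group (152 and 434). Myl7, Myl4 and Sln had 12.9, 14.1 and 1.17 normalized read counts in the CM library and 15.9, 20.3 and 1.27 in the NonCM library numbered 1, whereas replicate 2 had 251, 179 and 33.3 in CM and 222, 166 and 35.9 in NonCM. The labels do not say which CM and NonCM libraries came from the same heart.

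Epicardial markers stood high in NonCM libraries of Wls fl/fl hearts, at 0.0129 to 0.0141% of reads, against 0.00586 to 0.0114% in control libraries. Their median log2 difference was 0.57 (limma, 1 of 5 tested called higher, 5 at an unadjusted p under 0.05). Macrophage markers made up 0.153 to 0.17% of reads in Wls fl/fl and 0.109 to 0.142% in control NonCM libraries, with a median log2 difference of 0.31 (limma, 1 of 8 called higher, 6 at an unadjusted p under 0.05). In the CM fraction macrophage markers took 0.00517 to 0.0055% of reads in Wls fl/fl and 0.00512 to 0.00584% in control libraries. Blood endothelial markers had a median log2 difference of -0.14 in NonCM (limma, 1 of 9 called lower, 4 at an unadjusted p under 0.05), and pericyte markers one of 0.01 (1 of 7 called lower). Without replicate 3 of both genotypes neither limma nor edgeR called any gene of these 4 lists in NonCM, and by limma 1 of 5 epicardial, 3 of 8 macrophage, 1 of 9 endothelial and 1 of 7 pericyte markers had an unadjusted p under 0.05.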
